A study of Mus musculus with 10 samples.

Results

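The genes described here are 33 markers of DNA replication and mitosis, taken by symbol from a fixed list out of the 29890 genes of the expression table. Of these, 16 are S phase genes (Mcm2, Mcm3, Mcm4, Mcm5, Mcm6, Mcm7, Pcna, Rrm1, Rrm2, Tyms, Gins2, Cdc6, Cdc45, Ccne1, Ccne2 and Dtl) and 17 are G2/M genes (Mki67, Top2a, Ccnb1, Ccnb2, Cdk1, Aurka, Aurkb, Bub1, Bub1b, Plk1, Cdc20, Kif11, Kif20a, Tpx2, Cenpf, Birc5 and Ube2c). All 33 were found in the table and all 33 passed the filter on low values. Between tumors labelled for Adamts7 overexpression and vector tumors, 0 of 33 members were called different, where 0.223% of all tested genes were. The groups overlapped in every member, where 4.89% of all tested genes had groups that did not overlap. Within the vector group, however, most G2/M genes were lowest in the same 2 tumors. The sign of the G2/M comparison turned when those 2 tumors were left out. Leaving out the lowest tumors of a group raises its mean, so the direction of that shift followed from the choice of tumors. The share of all tested genes that were lowest in those 2 tumors was not computed.

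B2905-M4 mouse melanoma cells carrying either an Adamts7 overexpression construct or the vector were grown as subcutaneous tumors, and RNA-seq was done on 10 bulk tumors, 5 per group. Adamts7 is a secreted metalloproteinase with thrombospondin motifs. All hosts were female C57BL/6J mice aged 7 to 8 weeks when injected with 3000000 cells, and no tumor received immunotherapy. Harvest differed between the groups, with 2 Adamts7 tumors taken on day 35, 3 tumors of each group on day 45 and 2 vector tumors on day 50, and the labels do not tie a day to a tumor. For the first and the last harvest, group and day cannot be told apart. The comparison addresses which transcripts accompany the overexpression, and the design text states that the Adamts7 tumors grew faster. The promoter of the construct, and whether the cells of a group are 1 clone or a pool, are not given in the sources used here.

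Levels are in TPM, a share of all transcripts scaled by transcript length and by library, so that levels of different genes can be set side by side within a tumor. The number of reads behind each value is unknown. The overexpressed gene, Adamts7, had 88.5, 96.0, 78.2, 74.8 and 18.2 TPM in the Adamts7 group (replicates 1 to 5, the order used for all values per tumor) and 6.49, 6.98, 28.3, 8.57 and 27.6 TPM in the vector group. The tumor labelled Adamts7 5 was thus below the tumors labelled vector 3 and vector 5, and these 3 are called by their labels throughout. These tumors also stood apart in cell type markers. The summed level of 7 melanocyte genes (Pmel, Mlana, Tyr, Tyrp1, Dct, Mitf and Sox10), which define the melanocyte lineage, was 12469.7 to 22967 TPM in the Adamts7 tumors and 8375, 13231 and 16291 TPM in vector tumors 4, 1 and 2, but 312 TPM in the tumor labelled vector 3 and 1909 TPM in the tumor labelled vector 5. Sums of 7 T cell genes (Cd3e, Cd3d, Cd3g, Cd2, Cd8a, Cd4 and Lck) were 344 and 255 TPM in those 2 vector tumors, against 38.6 to 55.2 TPM in the other vector tumors and 15.7 to 40.2 TPM in the Adamts7 tumors. The 6 macrophage genes (Adgre1, Csf1r, Cd68, Mrc1, C1qa and C1qb) summed to 2453 and 2232 TPM in the same 2 tumors, against 651 to 1006 TPM in the other vector tumors and 335 to 1622 TPM in the Adamts7 tumors. Fibroblast genes (5) summed to 1023 and 1055 TPM there, against 296 to 598 TPM in the other vector tumors and 220.4 to 1263 TPM in the Adamts7 tumors, and endothelial genes (5) ranged from 48.3 to 86.9 and from 40.4 to 81.9 TPM in the vector and Adamts7 groups. Of the keratinocyte genes measured, Krt5, Krt14 and Krt10 were each at 0 in at least 1 tumor and summed to at most 2.29 TPM. Single genes did not all follow these sums. Sox10 was at 269 and 311 TPM in the tumors labelled vector 3 and vector 5, against 662 to 742 TPM in other vector tumors. Pmel was at 6.13 and 274 TPM there, against 1107 to 4380 TPM in the other vector tumors. Of the macrophage genes only Cd68 was lower there, at 162 and 158 TPM, against 218 to 411 TPM in the other vector tumors. Of the fibroblast genes only Col1a1, at 193 and 238 TPM, did not stand apart from vector tumor 2, at 234 TPM. In bulk tumors, fewer cells of a type and less RNA per cell cannot be told apart.

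DNA replication starts at origins that are licensed in G1, when Cdc6 and its partners load the ring-shaped MCM2-7 helicase onto DNA. Cyclin E with its kinase, and Cdc45 with the GINS complex, then turn the loaded ring into a moving fork, on which Pcna clamps the polymerases to the template. Later, cyclin B with Cdk1, the Polo and Aurora kinases and a checkpoint on kinetochores carry the cell through mitosis until Cdc20 lets the anaphase-promoting complex act. Transcripts of the first group are known to peak around the G1 to S transition under E2F factors, and those of the second in G2 and mitosis under MYBL2 and FOXM1 bound with the MuvB complex. In tumors, both groups are widely used as a readout of dividing cells.

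Because the sets are known for different promoter elements, 2 promoters of each set are shown, chosen as the members with the smallest p among those that held the elements of their set. They are RefSeq promoters of the build GRCm38.p6, each from 250 bases before to 50 bases after the annotated start, printed 5′ to 3′ on the gene's strand. Capitals in the S phase promoters mark E2F sites (TTCCCGC or TTCGCGC or TTGCCGC or TTGGCGC, either strand), and capitals in the G2/M promoters mark the CHR element (TTTGAA or TTCGAA, either strand) and the CCAAT box (CCAAT, either strand). Mcm3, a helicase subunit, lies at chr1:20820263-20820562 on the minus strand. Dtl, the substrate receptor of a ubiquitin ligase that acts on chromatin-bound Pcna, lies at chr1:191575495-191575794 on the minus strand. Cdk1, the mitotic kinase, lies at chr10:69352863-69353162 on the minus strand. Plk1, the Polo kinase, lies at chr7:122159185-122159484 on the plus strand.
Mcm3: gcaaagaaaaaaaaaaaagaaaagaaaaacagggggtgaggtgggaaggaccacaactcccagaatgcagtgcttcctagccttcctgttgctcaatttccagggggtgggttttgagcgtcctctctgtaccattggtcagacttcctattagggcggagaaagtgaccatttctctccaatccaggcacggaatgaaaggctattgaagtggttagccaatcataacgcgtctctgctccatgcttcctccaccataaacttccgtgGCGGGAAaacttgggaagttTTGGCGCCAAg
Dtl: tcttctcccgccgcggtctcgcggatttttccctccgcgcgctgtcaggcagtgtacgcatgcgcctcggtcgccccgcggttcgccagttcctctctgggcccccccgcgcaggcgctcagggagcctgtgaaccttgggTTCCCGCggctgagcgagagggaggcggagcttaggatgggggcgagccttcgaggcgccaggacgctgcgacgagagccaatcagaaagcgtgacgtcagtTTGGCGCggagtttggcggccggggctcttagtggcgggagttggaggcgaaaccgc
Cdk1: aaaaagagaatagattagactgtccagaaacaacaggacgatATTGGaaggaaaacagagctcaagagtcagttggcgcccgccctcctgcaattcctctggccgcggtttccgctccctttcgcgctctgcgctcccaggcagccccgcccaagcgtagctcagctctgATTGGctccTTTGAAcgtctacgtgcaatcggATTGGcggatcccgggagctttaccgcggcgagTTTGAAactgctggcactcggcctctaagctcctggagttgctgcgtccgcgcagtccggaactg
Plk1: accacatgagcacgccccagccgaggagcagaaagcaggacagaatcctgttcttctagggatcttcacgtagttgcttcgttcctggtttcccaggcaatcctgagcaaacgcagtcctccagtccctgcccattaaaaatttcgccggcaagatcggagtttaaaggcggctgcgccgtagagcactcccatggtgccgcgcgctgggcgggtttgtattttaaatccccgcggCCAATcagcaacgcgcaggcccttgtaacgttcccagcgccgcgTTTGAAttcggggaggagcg

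The promoter of Mcm3 held 3 E2F matches after the start, of which 2 overlap on opposite strands, and that of Dtl held 2, which began at -109 and -7, counted from the annotated start at 0. In Cdk1 the CHR matches began at -71 and -15, among 3 CCAAT boxes in the reverse direction, and in Plk1 a CCAAT box began at -14 and a CHR match at 30. RefSeq promoters were at hand for 27 of the 33 members, 13 S phase and 14 G2/M. Members were counted once, by any promoter of the gene, whereas the shares over all mouse promoters count each promoter. An E2F site was present in 8 of 13 S phase genes (61.5%) and 3 of 14 G2/M genes (21.4%), against 9.57% of 32851 mouse promoters of the same length. A CHR element was present in 3 of 13 (23.1%) and 12 of 14 (85.7%), against 19.2%, and the CCAAT box in 10 of 13 (76.9%) and 13 of 14 (92.9%), against 37.4%. These same 12 G2/M genes, and 3 of 13 S phase genes (23.1%), had a promoter with both the CHR element and the CCAAT box. Of all promoters, 7.52% held both. Overlapping matches were counted separately, a palindromic match once, and an E2F match can share bases with a CCAAT box, as in Ccnb1. A match describes letters in a window and no binding was measured.

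The Adamts7 and vector tumors were first compared for the S phase set. Of its 16 members, 0 were called higher and 0 lower (limma on log2(TPM + 1), Benjamini-Hochberg adjusted p below 0.05 over all 15276 tested genes), where 0.223% of all genes were called, 0.0262% higher and 0.196% lower. The log2 fold change, Adamts7 minus vector, was negative in 9 members and positive in 7, with a median of -0.22 and a range of -0.61 to 0.45. Over all tested genes the median was -0.10, and 60.2% were negative. An unadjusted p below 0.05 was reached by 2 of 16 members, Mcm4 and Mcm3, against 20.2% of all tested genes. None of the 33 members had groups that did not overlap, against 4.89% of all tested genes. The authors' deposited table likewise called 0 of the 33 members, where it called 7.96% of genes, 2.48% higher and 5.48% lower, and its smallest adjusted p among members was 0.269, in Mcm4. In 26 of the 33 members, 13 of each set, the 95% confidence interval of the log2 fold change lay within -1 to 1.

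**Figure D1:**
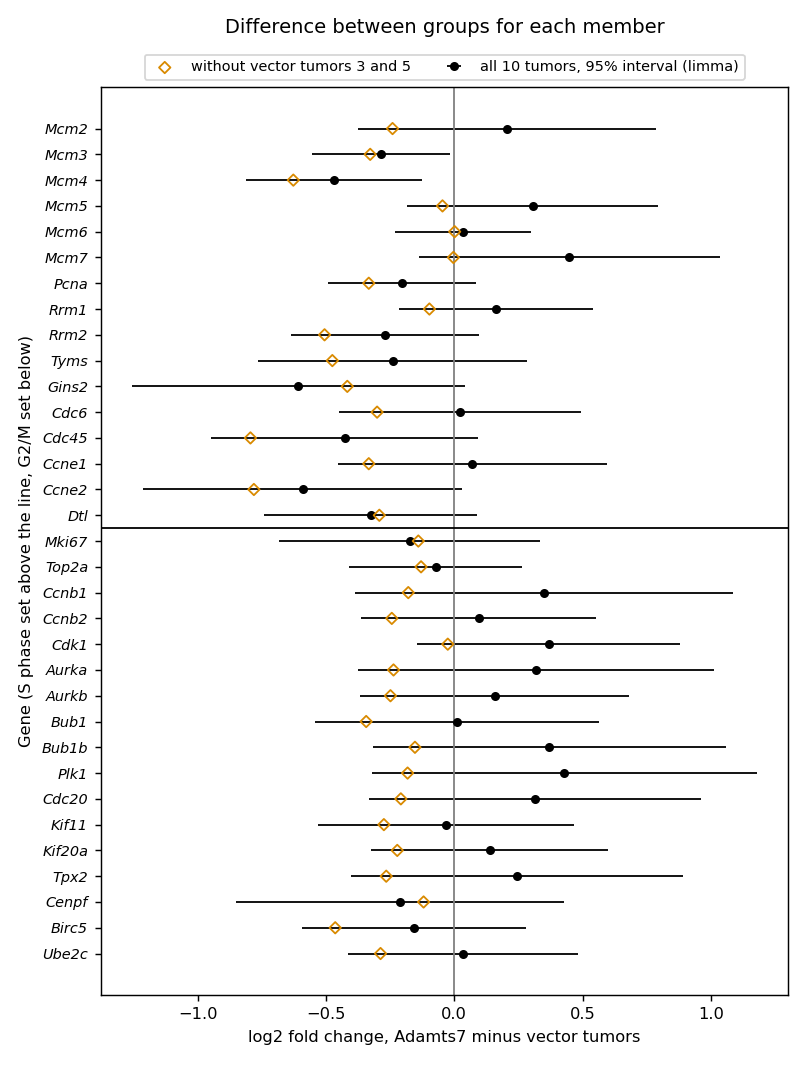
Log2 fold change (Adamts7 minus vector tumors, x axis) of each of the 33 members (y axis), with all 10 tumors as points with their 95% confidence interval from limma and without the tumors labelled vector 3 and vector 5 as open diamonds. With all tumors 12 of 17 G2/M points lie to the right of 0, and without those 2 tumors all 17 diamonds lie to the left.

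Mcm4 had the smallest p of the S phase set. It encodes 1 of the 6 subunits of the helicase ring, and it was at 29.6, 32.2, 23.2, 26.6 and 37.2 TPM in the Adamts7 tumors and 48.1, 42.2, 35.3, 47.6 and 34.0 TPM in the vector tumors. Adamts7 tumors 1 to 4 were below every vector tumor, and only the tumor labelled Adamts7 5 was above the lowest vector tumors, those labelled vector 3 and vector 5. The means were 29.7 ± 5.37 and 41.4 ± 6.64 TPM (SD, n = 5 tumors each), with a log2 fold change of -0.47 (SE 0.15, 95% interval -0.81 to -0.13, limma adjusted p = 0.158). Mcm3, the other member whose 95% interval excluded 0, was at 55.6, 52.2, 53.1, 56.1 and 59.6 TPM in the Adamts7 tumors, a narrow range, and 67.6, 87.5, 68.5, 56.9 and 61.2 TPM in the vector tumors. Vector tumor 4 lay within the Adamts7 range, and vector tumor 2 lay far above all other tumors. The log2 fold change of Mcm3 was -0.29 (SE 0.12, adjusted p = 0.228).

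The other 4 helicase subunits had positive log2 fold changes, with errors larger than those of Mcm3 and Mcm4 except in Mcm6. Mcm2 was at 114, 106, 89.7, 105 and 84.1 TPM in the Adamts7 tumors and 129, 122, 57.5, 103 and 50.1 TPM in the vector tumors. Vector tumors 1 and 2 were the highest of all 10 tumors and those labelled vector 3 and vector 5 the lowest, and the log2 fold change was 0.20 (SE 0.26, adjusted p = 0.664). Mcm6 varied least over the 10 tumors of all members, at 83.2, 88.1, 61.9, 71.2 and 81.2 TPM in the Adamts7 tumors and 81.2, 82.2, 73.8, 66.8 and 70.7 TPM in the vector tumors, with a log2 fold change of 0.03 (SE 0.12, adjusted p = 0.886). The vector range of Mcm6 lay inside the Adamts7 range. Mcm5 averaged 71.6 ± 8.94 TPM in the Adamts7 and 60.2 ± 20.4 TPM in the vector tumors, and Mcm7 137 ± 14.3 and 107 ± 43.3 TPM. For Mcm7 the log2 fold change of 0.45 (SE 0.27, adjusted p = 0.347) was the highest of all 33 members. Without the tumors labelled vector 3 and vector 5, the log2 fold change of Mcm7 was -0.0031 (SE 0.12), that of Mcm2 -0.24 and that of Mcm5 -0.05, while Mcm4 had -0.63 (adjusted p = 0.156) and Mcm3 -0.33.

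The 6 subunits form 1 ring with a single copy of each, but their transcripts were not at equal levels. Mcm4 had the lowest TPM of the 6 in all 10 tumors. Mcm7 had the highest TPM in 8 tumors, and Mcm6 in the tumors labelled vector 3 and vector 5, where Mcm7 was at 57.0 and 66.7 TPM against 116 to 152 TPM elsewhere. The ratio of the highest to the lowest subunit was 3.60 to 5.68 in the Adamts7 tumors (median 5.00) and 2.08 to 3.36 in the vector tumors (median 2.46), so these ranges did not overlap. Only the ratio of Rrm1 to Rrm2, the large and small subunits of ribonucleotide reductase, also had ranges that did not overlap, with 1.35 to 1.65 in the Adamts7 tumors and 0.98 to 1.20 in the vector tumors. These are 2 of 10 ratios chosen after the values were seen, so they are given as a description and no test was made.

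**Figure D2:**
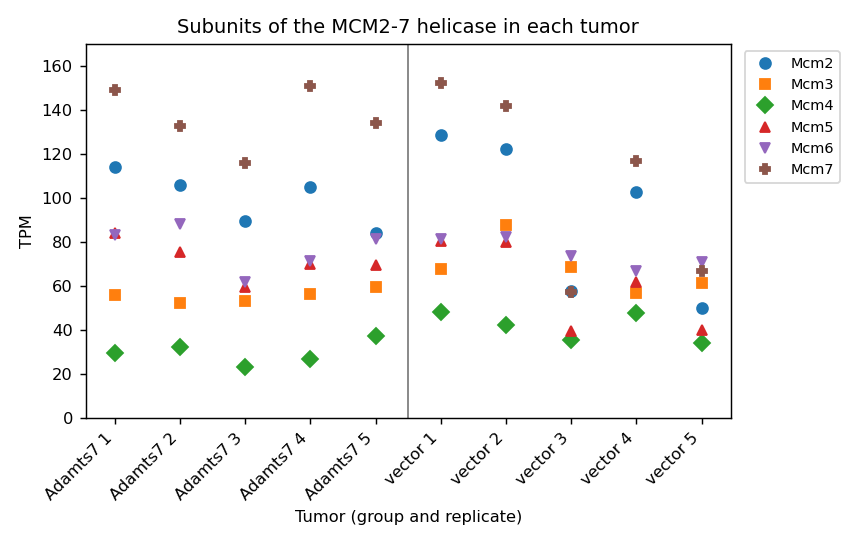
TPM (y axis) of the 6 subunits of the MCM2-7 helicase in each of the 10 tumors (x axis), 1 symbol per subunit. Mcm4 is the lowest symbol in every tumor, and Mcm7 and Mcm2 drop into the range of the other subunits in the tumors labelled vector 3 and vector 5.

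Factors that load and start the helicase differed among themselves. Gins2, a subunit of the GINS complex, was at 7.37, 6.59, 9.15, 6.62 and 20.3 TPM in the Adamts7 tumors and 11.4, 10.6, 19.8, 15.97 and 15.9 TPM in the vector tumors. Adamts7 tumors 1 to 4 were below every vector tumor, but the tumor labelled Adamts7 5 was the highest of all 10. The log2 fold change was -0.61 (SE 0.29, adjusted p = 0.273). Without the tumor labelled Adamts7 5 it was -0.88 (SE 0.19), which passed the test (limma adjusted p = 0.0406), and 655 of all tested genes (4.29%) passed then in place of 34. Cdc45, the helicase partner, averaged 21.4 ± 3.97 TPM in the Adamts7 and 30.2 ± 9.93 TPM in the vector tumors, with a log2 fold change of -0.43 (SE 0.24, adjusted p = 0.318). Vector tumors 1, 2 and 4, at 38.6, 36.4 and 37.2 TPM, were above all other tumors in Cdc45, and the tumors labelled vector 3 and vector 5, at 19.2 and 19.5 TPM, were within the Adamts7 range. Cdc6, the loader of the ring, was at 14.3, 11.1, 9.28, 11.8 and 10.1 TPM in the Adamts7 tumors and 14.2, 14.0, 7.92, 14.0 and 7.26 TPM in the vector tumors, and its log2 fold change was 0.02 (SE 0.21, adjusted p = 0.961). The tumors labelled vector 3 and vector 5 were the lowest of all 10, and the other vector tumors lay near the highest Adamts7 tumor.

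Pcna, the sliding clamp, was the most abundant S phase member. It was at 222, 200.2, 186, 193 and 266 TPM in the Adamts7 tumors and 261, 275, 207, 264 and 219 TPM in the vector tumors. Adamts7 tumors 2 to 4 were below every vector tumor, whereas the tumor labelled Adamts7 5 was among the highest, and the log2 fold change was -0.20 (SE 0.13, adjusted p = 0.381). Dtl averaged 9.84 ± 3.28 TPM in the Adamts7 and 12.2 ± 1.47 TPM in the vector tumors (log2 fold change -0.33, SE 0.19). Its highest tumor was the one labelled Adamts7 5, at 15.5 TPM, while the other Adamts7 tumors lay at 7.58 to 9.84 TPM, below all vector tumors.

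Enzymes of nucleotide supply did not share 1 direction. Rrm1 averaged 69.4 ± 7.42 TPM in the Adamts7 and 63.1 ± 14.9 TPM in the vector tumors (log2 fold change 0.16, SE 0.17), and Rrm2 47.4 ± 5.69 and 58.3 ± 13.3 TPM (log2 fold change -0.27, SE 0.17). Tyms, thymidylate synthase, averaged 29.2 ± 9.34 and 34.0 ± 8.14 TPM (log2 fold change -0.24, SE 0.24). None passed the test, with adjusted p values of 0.591, 0.362 and 0.565.

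The E cyclins, partners of the kinase that fires origins, differed in sign. Ccne2 was at 15.5, 13.4, 7.08, 9.15 and 16.1 TPM in the Adamts7 tumors and 33.1, 17.1, 17.6, 15.9 and 12.3 TPM in the vector tumors, with vector tumor 1 far above the rest and Adamts7 tumors 3 and 4 the lowest. Its log2 fold change was -0.59 (SE 0.28, adjusted p = 0.268). Ccne1 was at 25.2, 24.4, 19.9, 25.3 and 25.8 TPM in the Adamts7 tumors and 29.7, 31.0, 15.3, 30.8 and 14.1 TPM in the vector tumors. The tumors labelled vector 3 and vector 5 were again the lowest and the other vector tumors the highest, and the log2 fold change was 0.07 (SE 0.24, adjusted p = 0.88). Without those 2 vector tumors it was -0.33 (adjusted p = 0.289).

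In the G2/M set, 0 of 17 members were called higher and 0 lower, where 0.223% of all tested genes were called. An unadjusted p below 0.05 was reached by 0 members, against 20.2% of all tested genes. The log2 fold change was positive in 12 members and negative in 5, with a median of 0.14 and a range of -0.21 to 0.43, and the smallest adjusted p was 0.375, in Cdk1. In the authors' deposited table the fold change was positive in 16 of the 17, with a median of 0.19, and the 4 members whose sign differed from the limma fit (Mki67, Top2a, Kif11 and Cenpf) had log2 fold changes there of 0.03 to 0.11. The spread between vector tumors was the larger one in 13 of the 17 members, with a median SD on the log2(TPM + 1) scale of 0.52 against 0.18 between Adamts7 tumors. In the S phase set it was larger in 10 of 16, with medians of 0.36 and 0.20. The tumors labelled vector 3 and vector 5 were the 2 lowest of all 10 tumors in 12 of 17 G2/M members, and in 6 of 16 S phase members (Mcm2, Mcm5, Mcm7, Rrm1, Cdc6 and Ccne1). The tumor labelled vector 3 alone was the lowest in 14 of the 17. Shares of all tested genes with these spreads and lowest tumors were not computed. Whether they are particular to the members is therefore unknown.

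**Figure D3:**
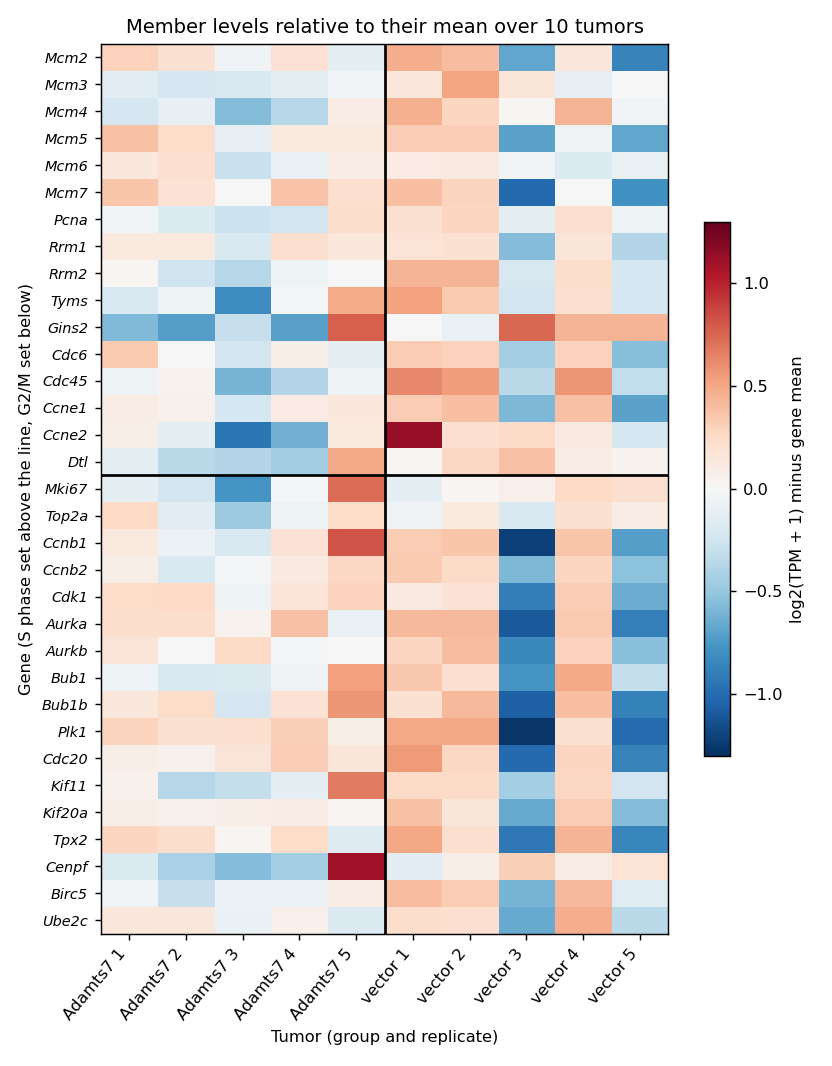
Level of each of the 33 members (y axis) in each tumor (x axis) as log2(TPM + 1) minus the gene's mean over the 10 tumors, with red above and blue below that mean. The columns of the tumors labelled vector 3 and vector 5 are blue over most of the G2/M set, and the tumor labelled Adamts7 5 is red in Cenpf, Ccnb1, Mki67, Kif11 and Gins2.

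Kinases and cyclins of mitotic entry showed this split between vector tumors. Cdk1 was at 204, 208, 166, 195 and 213 TPM in the Adamts7 tumors and 187, 197, 92.3, 217 and 110.1 TPM in the vector tumors. Vector tumors 1, 2 and 4 lay within or just above the Adamts7 range, and the tumors labelled vector 3 and vector 5 far below it. The log2 fold change of Cdk1 was 0.37 (SE 0.23, 95% interval -0.15 to 0.88), and without those 2 tumors it was -0.02 (SE 0.11). Plk1 was at 59.9, 56.1, 56.7, 61.1 and 51.6 TPM in the Adamts7 tumors and 69.4, 69.5, 19.9, 56.2 and 23.9 TPM in the vector tumors, which gave the highest log2 fold change of the set, 0.43 (SE 0.34, adjusted p = 0.471). Its 5 Adamts7 tumors lay close together, and 3.50-fold separated the highest vector tumor from the one labelled vector 3. Without the tumors labelled vector 3 and vector 5 the value was -0.18 (adjusted p = 0.528). Ccnb1, cyclin B1, was at 69.2, 60.0, 55.1, 72.3 and 112 TPM in the Adamts7 tumors and 79.6, 81.7, 26.8, 81.7 and 37.9 TPM in the vector tumors. The tumor labelled Adamts7 5 was the highest of all 10 and the tumor labelled vector 3 the lowest, and the log2 fold change was 0.35 (SE 0.33, adjusted p = 0.548). Cyclin B2, Ccnb2, averaged 52.8 ± 6.34 and 51.1 ± 15.5 TPM in the Adamts7 and vector tumors. Aurka, the Aurora kinase of the spindle poles, averaged 58.1 ± 7.40 and 51.1 ± 23.5 TPM, and Tpx2, which activates it on spindle microtubules, 69.7 ± 8.78 and 63.7 ± 27.9 TPM. Their log2 fold changes were 0.10, 0.32 and 0.25 (SE 0.21, 0.31 and 0.29), and -0.24, -0.24 and -0.26 without the 2 vector tumors.

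Checkpoint and kinetochore genes were alike in their low values in the tumor labelled vector 3, except Cenpf. Bub1b, which encodes the checkpoint protein BubR1, was at 52.4, 55.6, 40.2, 54.0 and 70.4 TPM in the Adamts7 tumors and 54.3, 63.5, 22.1, 62.0 and 25.1 TPM in the vector tumors. Its log2 fold change was 0.37 (SE 0.31, adjusted p = 0.495). Bub1, the kinetochore kinase, was at 13.7, 12.3, 12.4, 13.8 and 21.2 TPM in the Adamts7 tumors and 18.5, 16.7, 8.02, 20.6 and 11.3 TPM in the vector tumors. For Bub1 the vector tumors lay on both sides of Adamts7 tumors 1 to 4, and the log2 fold change of 0.01 (SE 0.25, adjusted p = 0.981) was the nearest to 0 of the set. Cenpf, a large kinetochore protein, went another way, with 21.7 TPM in the tumor labelled Adamts7 5, 6.17 to 8.30 TPM in the other Adamts7 tumors and 8.66 to 12.2 TPM in the vector tumors. Adamts7 tumors 1 to 4 were below every vector tumor in Cenpf, and the tumor labelled vector 3 was the highest vector tumor. The group means of Cenpf were 9.97 ± 6.58 and 10.5 ± 1.28 TPM (log2 fold change -0.21, SE 0.29), and leaving out that Adamts7 tumor gave -0.51 (limma adjusted p = 0.0617). Aurkb and Birc5 belong to the chromosomal passenger complex. Aurkb averaged 46.3 ± 3.97 and 43.7 ± 15.7 TPM (log2 fold change 0.16, SE 0.24), and Birc5, survivin, 66.8 ± 6.56 and 77.1 ± 21.6 TPM (log2 fold change -0.16, SE 0.20).

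The anaphase genes Cdc20 and Ube2c were also lowest in the tumors labelled vector 3 and vector 5. Cdc20, the activator of the anaphase-promoting complex, was at 71.2, 70.2, 75.9, 84.1 and 75.3 TPM in the Adamts7 tumors and 99.0, 81.1, 32.9, 82.0 and 36.4 TPM in the vector tumors, with a log2 fold change of 0.31 (SE 0.29, adjusted p = 0.538). The tumors labelled vector 3 and vector 5 were far below all others. Ube2c, the ubiquitin-conjugating enzyme of that complex, averaged 145 ± 14.2 and 147 ± 44.2 TPM (log2 fold change 0.04, SE 0.20), and was 90.2 TPM in the tumor labelled vector 3 and 198 TPM in vector tumor 4. Among the spindle motors, Kif20a of the central spindle had the smallest spread of any member between Adamts7 tumors, 49.0 ± 1.05 TPM against 46.6 ± 15.2 TPM in the vector tumors (log2 fold change 0.14, SE 0.21). Kif11, the motor that separates the spindle poles, was at 23.6, 17.3, 18.2, 20.6 and 36.9 TPM in the Adamts7 tumors and 27.2, 27.3, 16.4, 27.6 and 18.9 TPM in the vector tumors. The groups overlapped widely (log2 fold change -0.03, SE 0.23, adjusted p = 0.946), with the tumor labelled Adamts7 5 the highest of all.

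Both genes most used as proliferation markers differed from most of the set in which tumor was the lowest. Mki67, which encodes the Ki-67 antigen, was at 23.4, 21.6, 14.7, 25.2 and 43.1 TPM in the Adamts7 tumors and 23.5, 26.1, 26.9, 30.9 and 29.9 TPM in the vector tumors. Its vector tumors lay within a narrow range that included those labelled vector 3 and vector 5, while Adamts7 tumor 3 was the lowest and the tumor labelled Adamts7 5 the highest of all 10. The log2 fold change was -0.17 (SE 0.23, adjusted p = 0.675). Top2a, topoisomerase II alpha, which untangles the replicated strands, was at 113, 85.3, 67.5, 89.5 and 111 TPM in the Adamts7 tumors and 90.8, 103, 81.7, 108 and 101 TPM in the vector tumors. For Top2a, too, Adamts7 tumor 3 was the lowest, and the log2 fold change was -0.07 (SE 0.15, adjusted p = 0.805). Mki67, Top2a and Cenpf were the 3 G2/M members in which the lowest tumor was Adamts7 tumor 3 and not the one labelled vector 3. Top2a and Kif11 turned positive under scaling by median-of-ratios (0.03 and 0.07) and Kif11 under quantile normalization (0.11), so their direction depended on the scaling.

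Averaged over the members on the log2(TPM + 1) scale, the S phase set was at 5.37, 5.28, 4.99, 5.22 and 5.50 in the Adamts7 tumors and 5.69, 5.64, 5.13, 5.53 and 5.05 in the vector tumors, and the G2/M set at 5.74, 5.60, 5.51, 5.71 and 5.94 and 5.90, 5.90, 4.94, 5.96 and 5.16. In the S phase mean the lowest tumor was Adamts7 tumor 3 (4.99), followed by the tumors labelled vector 5 (5.05) and vector 3 (5.13), and in the G2/M mean the tumors labelled vector 3 (4.94) and vector 5 (5.16) were the lowest. Group means were 5.27 ± 0.19 and 5.41 ± 0.30 for the S phase set, and 5.70 ± 0.16 and 5.57 ± 0.48 for the G2/M set (SD, n = 5 tumors each). Neither difference, -0.14 and 0.13, exceeded the spread between vector tumors. Within a tumor the G2/M mean lay above the S phase mean by 0.37, 0.32, 0.51, 0.49 and 0.44 in the Adamts7 tumors and by 0.21, 0.26, -0.19, 0.43 and 0.11 in the vector tumors, of which only the tumor labelled vector 3 had the reverse order. The group means of that gap were 0.43 ± 0.08 and 0.16 ± 0.23, and vector tumor 4, at 0.43, lay inside the Adamts7 range. Their difference was 0.26, and 0.18 without the tumor labelled vector 3 and 0.13 without both that tumor and the one labelled vector 5.

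**Figure D4:**
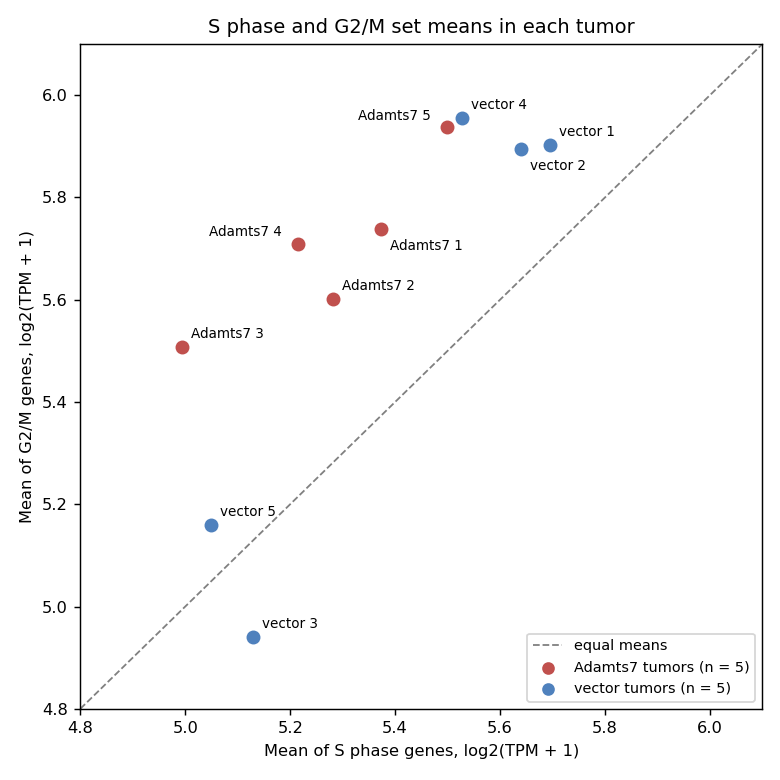
Mean log2(TPM + 1) of the 17 G2/M genes (y axis) against that of the 16 S phase genes (x axis) in each tumor, with a dashed line where both are equal. The 5 Adamts7 tumors and vector tumors 1, 2 and 4 lie at 5.51 or above on the G2/M axis, and the tumors labelled vector 3 and vector 5 at 5.16 or below.

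The calls, signs, overlaps and spreads were also taken without the tumors labelled vector 3 and vector 5, which left 5 Adamts7 against 3 vector tumors. These 2 tumors were left out after their values were seen. They were the 2 lowest of all 10 in 12 of 17 G2/M and 6 of 16 S phase members. In those members, leaving out these tumors could only lower the log2 fold change. Then 15 of 16 S phase and 17 of 17 G2/M log2 fold changes were negative, with medians of -0.33 and -0.22, and 18 of the 33 members changed sign. The median over all tested genes was -0.10 in this fit. Still 0 members were called, where 0.183% of all tested genes were, and the smallest adjusted p was 0.108, in Cdc45 (-0.79, SE 0.16). An unadjusted p below 0.05 was reached by 11 of 33 members in this fit, against 12.5% of all tested genes. In 8 members (Mcm4, Rrm2, Cdc45, Ccne1, Aurkb, Kif20a, Birc5 and Ube2c) the groups then did not overlap, all lower in the Adamts7 tumors, against 9.18% of all tested genes. The vector tumors then had the larger SD in 4 of 16 S phase and 3 of 17 G2/M members. Birc5 had -0.46 (adjusted p = 0.129) and Rrm2 -0.51 (adjusted p = 0.155). Without the tumor labelled Adamts7 5 as well, 5 members were called, all lower in the Adamts7 tumors, namely Mcm4 (-0.71, limma adjusted p = 0.0286), Pcna (-0.41, adjusted p = 0.032), Rrm2 (-0.54, adjusted p = 0.0451), Cdc45 (-0.83, adjusted p = 0.0343) and Birc5 (-0.51, adjusted p = 0.0279), where 5.24% of all tested genes (800) were called. The tumor labelled Adamts7 5 was likewise left out after its values were seen. It was the highest Adamts7 tumor in Mcm4, Pcna and Birc5, and above the Adamts7 mean in Rrm2 and Cdc45. Leaving it out could therefore only lower the log2 fold changes of these 5 members. Weighting each tumor by its agreement with its group, with all 10 kept, gave these same 3 tumors the lowest weights (0.265 to 0.322, others 1.33 to 2.83). Mcm4, Pcna, Rrm2 and Cdc45 were then called lower, where 7.98% of all tested genes (1219) were called. The weights come from the same values, so this fit is no separate support. With these weights 15 of 17 G2/M log2 fold changes were negative, with a median of -0.19, and 15 of the 33 members changed sign. Shares of all tested genes that changed sign in these fits, or had the larger SD between vector tumors, were not computed. The part of the marker differences described for the tumors labelled vector 3 and vector 5 in these results was not tested.

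Values of single tumors also varied with the GC content of the transcripts. Whether this belongs to the libraries or to the cells of the tumors was not tested. Over 12426 tested genes with a transcript at hand, the Spearman correlation between a gene's deviation from its mean and the GC content of its transcript was 0.16 to 0.36 in Adamts7 tumors 1 to 4, -0.31 in the tumor labelled Adamts7 5, 0.09, 0.07 and -0.19 in vector tumors 1, 2 and 4, and -0.13 and -0.22 in those labelled vector 3 and vector 5. Over the 33 members it was 0.38 to 0.60 in Adamts7 tumors 1 to 4, -0.45 in the tumor labelled Adamts7 5, 0.10 to 0.40 in vector tumors 1, 2 and 4, and -0.44 and -0.54 in the tumors labelled vector 3 and vector 5. Genes share each library, and these values are descriptions. Transcript GC was 36.3% in Ccne2 and 56.0% in Plk1, the lowest and highest of the members. When each tumor was centred within 20 bins of GC content, the median log2 fold change was -0.09 in the S phase set and 0.20 in the G2/M set, and 0 members were called, where 0.427% of the 12426 genes were.

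The other genes of the pathway were followed in 8 lists with 133 genes, all of which were tested. Of these, 0 were called in either direction, where 0.223% of all tested genes were. Over all tested genes the median log2 fold change was -0.10, and 60.2% were negative. The 18 other origin licensing and firing genes had negative log2 fold changes in 16 cases, with a median of -0.23. Gmnn, geminin, which blocks relicensing, was at 26.0, 28.7, 24.4, 24.6 and 43.2 TPM in the Adamts7 and 46.6, 47.2, 40.7, 41.6 and 40.2 TPM in the vector tumors, so that only the tumor labelled Adamts7 5 reached the vector range (log2 fold change -0.57, SE 0.16, adjusted p = 0.124). Orc6, of the origin recognition complex, averaged 28.7 ± 14.1 and 43.7 ± 5.17 TPM (log2 fold change -0.69). Among 22 DNA polymerase, clamp loader and fork genes, 16 were negative, with a median of -0.14. Pole2, a subunit of DNA polymerase epsilon, was at 10.1, 8.47, 8.65, 10.9 and 11.8 TPM in the Adamts7 tumors and 14.0, 12.8, 12.7, 13.2 and 15.7 TPM in the vector tumors, without overlap (log2 fold change -0.42, SE 0.13, adjusted p = 0.138). Rpa3, of the single-strand binding complex, averaged 77.9 ± 24.9 and 133 ± 42.0 TPM (log2 fold change -0.76). Of 12 nucleotide supply and replication-coupled chromatin genes, 8 were negative, with a median of -0.08. Slbp, which binds histone mRNA, was at 44.7, 33.4, 35.1, 28.4 and 47.5 TPM in the Adamts7 tumors and 50.3, 51.0, 52.1, 56.0 and 54.2 TPM in the vector tumors, again without overlap (log2 fold change -0.49, adjusted p = 0.131), and Shmt1, of folate metabolism, averaged 12.3 ± 2.04 and 8.82 ± 3.19 TPM (log2 fold change 0.48). Pole2 and Slbp were the 2 of 133 genes whose groups did not overlap, against 4.89% of all tested genes.

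The mitotic lists had medians nearer to 0, which lay above the median of all tested genes, -0.10. Of 26 other spindle, kinetochore and checkpoint genes, 13 were negative, with a median of -0.02, and the 2 with the smallest p were Ndc80 of the outer kinetochore (10.9 ± 4.09 and 15.5 ± 2.59 TPM in the Adamts7 and vector tumors, log2 fold change -0.51) and the checkpoint gene Mad2l1 (58.2 ± 9.90 and 70.1 ± 10.5 TPM, -0.27). Of 15 condensin, cohesion and cytokinesis genes, 8 were negative, with a median of -0.01. Smc4, the condensin ATPase, was at 35.3, 25.6, 23.9, 29.5 and 69.6 TPM in the Adamts7 tumors and 46.4, 55.0, 94.2, 66.8 and 85.8 TPM in the vector tumors, with the tumor labelled Adamts7 5 in the vector range (log2 fold change -0.97, SE 0.30, adjusted p = 0.139). Cep55, of abscission, averaged 15.4 ± 3.94 and 20.3 ± 5.24 TPM. Of 12 mitotic entry regulators, 6 were negative, with a median of 0.03, and Cks1b (90.3 ± 40.0 and 111 ± 26.2 TPM), Wee1 (17.2 ± 2.83 and 22.8 ± 8.26 TPM) and Foxm1 (54.6 ± 4.95 and 51.6 ± 17.8 TPM) had log2 fold changes of -0.35, -0.33 and 0.15.

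Upstream of both sets, 8 of 14 G1 cyclin, CDK and E2F genes were negative, with a median of -0.07. Cdk4, the partner of the D cyclins, was at 494, 454, 431, 413 and 378 TPM in the Adamts7 tumors and 375, 389, 244, 354 and 241 TPM in the vector tumors, lowest in those labelled vector 3 and vector 5 (log2 fold change 0.46, adjusted p = 0.176). The authors' deposited table called Cdk4 higher, with a log2 fold change of 0.55 and an adjusted p of 0.0429. That table called 2.48% of genes higher and 5.48% lower. E2f5, a repressor E2F, averaged 6.96 ± 1.63 and 9.28 ± 1.29 TPM. Ccnd1, cyclin D1, averaged 495 ± 32.7 and 477 ± 133 TPM, Myc 88.4 ± 15.4 and 64.3 ± 28.6 TPM, and E2f1 43.1 ± 11.1 and 40.6 ± 15.3 TPM, with log2 fold changes of 0.10, 0.55 and 0.12 (SE 0.18, 0.28 and 0.29). Of 14 CDK inhibitors, pocket proteins and p53-induced brakes, 7 were negative, with a median of -0.03. Ccng1, cyclin G1, averaged 39.6 ± 5.82 and 53.5 ± 5.10 TPM (log2 fold change -0.43, adjusted p = 0.135). Btg2, an antiproliferative gene, was at 7.52, 7.01, 5.62, 3.78 and 6.99 TPM in the Adamts7 tumors and 7.41, 8.85, 25.9, 8.78 and 21.9 TPM in the vector tumors, with the tumors labelled vector 3 and vector 5 far above all others, and the authors' deposited table called it lower (log2 fold change -1.11, adjusted p 0.049). Cdkn1a, p21, averaged 225 ± 48.7 and 237 ± 64.0 TPM, and Cdkn2a 1.22 ± 0.949 and 2.89 ± 2.24 TPM. Without the tumors labelled vector 3 and vector 5, 0 of the 133 genes were called, where 0.183% of all tested genes were. Without the tumor labelled Adamts7 5 alone 10 of the 133 were called, all lower, where 4.29% of all tested genes were called.

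**Figure D5:**
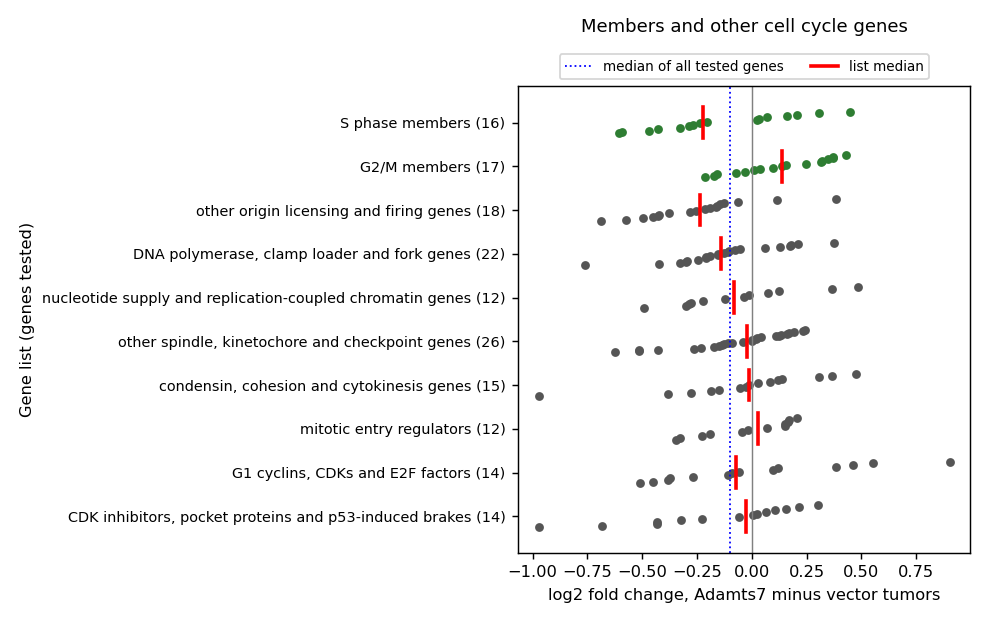
Log2 fold change (Adamts7 minus vector tumors, x axis) of every tested gene in the 2 member sets (green) and 8 other cell cycle lists (grey), 1 row per list with its number of genes on the y axis, a red bar at the list's median and a dotted line at the median of all tested genes, -0.10. The S phase members and the origin licensing genes have medians of -0.22 and -0.23, and the G2/M members of 0.14.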

How the data were processed

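RNA-seq libraries of 10 tumors were made with ERCC spike-ins, poly(A) selection and molecular identifiers, per the labels' protocols, and the sources used here do not say whether identifiers or spike-ins entered the counting. The authors deposited log2(TPM + 1) values per gene symbol, with RSEM and mm39 named in the submitters' processing notes. TPM keeps no depth, and reads shared by similar genes are split by an RSEM estimate. The authors' deposited comparison table (DESeq2, per the submitters' processing notes) holds, for each gene, a normalized signal averaged over tumors, a log2 fold change, a test score and a p-value, and its identifiers were paired with symbols for 28805 of 30040 rows. Labels do not say that tumors of a group came from separately made cells, so p-values measure the spread between these tumors.

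Groups were taken from the titles. The deposited log2(TPM + 1) values (pseudocount 1 TPM) of the 15276 genes that averaged 1 TPM or more were fitted by group alone in limma 3.58.1 (R 4.3.3, prior variance with a trend). Calls were made at 0.05 after Benjamini-Hochberg adjustment over these genes. Fold changes on this scale are smaller than those of TPM itself in low genes. The test was checked on simulated data. Python 3.11.15 and pandas 2.3.3 served for joins, promoter motifs and GC content, the last from the longest protein-coding transcript of each gene in an annotation of an older build. The members and lists were chosen with earlier results of these data known. Values in every tumor are given for the 4 members of each set with the smallest p, the 2 with the largest, and Pcna, Mcm2, Ccne1, Ccne2, Mki67, Top2a, Ccnb1 and Cdk1. Of the other lists, the 2 genes with the smallest p and Ccnd1, Myc, E2f1, Foxm1, Cdkn1a and Cdkn2a are named, and any further tumor values were chosen after they were seen. Promoters follow the smallest p among members with the elements of their set, outside 1 chromosome whose sequence is not printed here. Alternatives were other pseudocounts, filters and scalings, array weights, a replicate block, leaving out each tumor, draws of 3 tumors per group to stand for day 45 and, chosen after seeing the data, leaving out tumors that stood apart and centring by GC content. The deposited antigen receptor repertoire was not used here.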

Additional observations from a re-analysis of the deposited data

Results flagged for a closer look

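In 72 checks for a single tumor far from the other tumors of its group, made over the 33 members and the set means, 5 tumors stood out by Dixon's criterion, and chance gives about 1 in 20. All 5 were Adamts7 tumors. Rrm1 was at 56.6 TPM in Adamts7 tumor 3, with the nearest tumor of the group at 71.3 TPM. Ccne1 was at 19.9 TPM in the same tumor, with the nearest at 24.4 TPM. Gins2 was at 20.3 TPM in the tumor labelled Adamts7 5, with the nearest at 9.15 TPM. Cenpf was at 21.7 TPM in that tumor, with the nearest at 8.30 TPM, and Bub1 at 21.2 TPM, with the nearest at 13.8 TPM. The tumor labelled Adamts7 5 is also the one with 18.2 TPM of Adamts7.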

How the results depend on the processing

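With all 10 tumors, 0 members of either set and 0 of 133 other cell cycle genes were called, where 0.223% of all tested genes were. The median log2 fold changes were -0.22 (S phase) and 0.14 (G2/M), and the G2/M mean minus the S phase mean differed by 0.26 between the groups. Other pseudocounts, filters, scalings and a fit without the trend called 0 members, with S phase medians of -0.23 to -0.12 and G2/M medians of 0.14 to 0.24. Those settings called 0.0335% to 0.249% of the genes tested in each. Quantile normalization moved the median of all genes from -0.10 to 0.04. Array weights called 4 S phase members and 26 other genes, where 7.98% of all tested genes were called, and turned the G2/M median to -0.19. The authors' deposited table called 2 other genes, Cdk4 and Btg2, where it called 7.96% of genes. Leaving out 1 tumor at a time gave 0 to 1 S phase members called, 0 G2/M members, 0 to 10 other genes, S phase medians of -0.29 to -0.11, G2/M medians of -0.03 to 0.25 and gaps of 0.18 to 0.33. In those fits 0.0393% to 4.29% of all tested genes were called. The highest counts came without the tumor labelled Adamts7 5, and the G2/M median was -0.03 without the tumor labelled vector 3 and 0.01 without that labelled vector 5. Without both of these vector tumors the G2/M median was -0.22 and the gap 0.13. Without the tumor labelled Adamts7 5 as well it was -0.24, with 4 S phase members, 1 G2/M member and 17 other genes called, and Ect2 (-0.68) and Gtse1 (-0.38) were called lower against the sign of the whole comparison. That fit called 5.24% of all tested genes. With 3 tumors drawn from each group to stand for the harvest on day 45 (100 draws), the S phase median ran from -0.43 to 0.10 (below 0 in 92), the G2/M median from -0.27 to 0.44 (above 0 in 86) and the gap from 0.078 to 0.44, with at most 1 S phase member, 1 G2/M member and 15 other genes called, while 0 to 1929 of all tested genes were called. The cause of these differences was not tested. With the replicate numbers as a block, 0 members and 0 other genes were called, and 0 of all tested genes in place of 34. Deviations of same-numbered tumors correlated at -0.28 to 0.26. In no pair were both tumors closest to each other, so these values do not show that the numbers pair the tumors. The read depth of the tumors is unknown here, so no counting error is given for any value.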

Other observations

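Ratios between partner genes within a tumor do not depend on the scaling of its library, and 8 more were computed beside those of the helicase and of ribonucleotide reductase. Such ratios can still vary with GC content, which was 56.0% in Plk1, 46.6% in Mki67 and 47.8% in Cdk1. That part was not tested. Plk1 to Mki67 was 1.20 to 3.85 in the Adamts7 tumors and 0.74 to 2.95 in the vector tumors, and Cdk1 to Mki67 was 4.95 to 11.3 and 3.43 to 7.97. Both were lowest in the tumors labelled vector 3 (0.74 and 3.43) and vector 5 (0.80 and 3.68), followed by the tumor labelled Adamts7 5 (1.20 and 4.95). Bub1b to Bub1 was 3.23 to 4.54 in the Adamts7 tumors and 2.21 to 3.81 in the vector tumors. Cyclin B1 to B2 was 1.11 to 1.83 and 0.80 to 1.35, Aurora A to B 1.03 to 1.56 and 0.92 to 1.31, and cyclin E1 to E2 1.60 to 2.81 and 0.87 to 1.93. Mcm7 to Mcm3 was 2.18 to 2.69 and 0.83 to 2.25, and Mcm2 to Mcm6 1.04 to 1.47 and 0.71 to 1.58. The groups overlapped in each of these 8 ratios, which were chosen after the values were seen and were not tested.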
